A study of Mus musculus with 46 samples.

Results

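Each DNA fragment of the Nanog locus was measured on its own in front of a reporter in mouse embryonic stem cells, without a second fragment beside it. The members are all fragments that the deposited table of Upstream constructs lists for the Nanog locus with a value alone, 1 value per fragment, strand and replicate, after repeats of the same value were removed. They are 236 constructs (a fragment on 1 strand) of 122 fragments, out of 837 constructs of 452 fragments read over 3 loci. Of the 122 fragments, 104 were candidate cis-regulatory elements (cCREs, 202 constructs) and 18 were promoters (34 constructs). The table lists 238 combinations of fragment and strand, and the other 2 (E012 and E050, both on the minus strand) had no value alone. All fragments span 450 bp between their listed start and end on chromosome 6 (mm10). Their centres lie between −398.76 and 596.37 kb from the centre of P010, the promoter fragment that holds the Nanog start, and 114 fragments had values on both strands.

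The cells of every sample were E14TG2a, an established mouse embryonic stem cell line, grown with leukaemia inhibitory factor and inhibitors of a pair of kinases (2i+LIF). Barcoded plasmids carrying the Klf2, Nanog and negative control libraries were mixed and nucleofected together in 3 biological replicates, and RNA was collected 24 h later. No group had another genotype, treatment or time, so every comparison is between fragments within the same 3 cDNA samples. The series holds 46 samples, of which these 3 of reporter RNA and 2 of the plasmid pool bear on the fragments described here. The values are ratios of barcodes in reporter RNA to barcodes in plasmid DNA. The plasmids were not integrated, so no fragment was read at its place in the chromosome. No endogenous marker gene is read by this assay, and the cell type therefore could not be checked from the values. Activity is a mean over transfected cells, so fewer active cells and less reporter RNA per active cell cannot be told apart. The depth is unknown, since barcode and read numbers were not analysed here, and no counting interval is given. The 3 replicates were transfected with the same pool, so the p-values measure the spread between transfections and do not hold the variation among barcoded plasmids with the same insert.

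Nanog encodes a homeodomain transcription factor of the pluripotent state, and its expression in embryonic stem cells depends on the factors OCT4 and SOX2, which bind side by side in its proximal promoter. Enhancers are distal elements that raise transcription from a promoter, often in either orientation, and many also start transcription weakly themselves. A promoter holds a transcription start site and is usually read in 1 direction. In a reporter that carries a single fragment, both kinds of activity are read together. Around Nanog lie Dppa3, a factor of the oocyte and early embryo, Gdf3, a ligand of the TGF-beta family, and Slc2a3, a glucose transporter. Apobec1, an enzyme that edits cytidine in messenger RNA, lies on the same side as Dppa3. On the far side lies a cluster of C-type lectin receptor genes (Clec4 genes), which are known from myeloid immune cells.

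For 9 of the 18 promoter fragments the RefSeq promoter table (GRCm38.p6) holds a start whose 250 upstream bases lie inside the fragment. Of these, 4 are shown as examples that differ in activity: the Nanog promoter, which was called higher than the median cCRE, the Apobec1 promoter, which lay just short of the threshold, a Clec4a1 promoter with an octamer match and no call, and the Clec4b1 promoter, which was called lower on 1 strand. Each runs 5′ to 3′ on the gene's strand and ends at the base before the start. Capitals mark matches, on either strand, to 4 short motifs. The octamer core that POU factors such as OCT4 bind was searched as TTTGCAT. The core bound by SOX factors was searched with the letters CATTGT. For the GC box the letters used were GGGCGG, and the TATA box that helps to place a start was searched as TATAAA. No match overlapped another in these 4 windows.
P010, Nanog, chr6:122707239-122707488, plus strand: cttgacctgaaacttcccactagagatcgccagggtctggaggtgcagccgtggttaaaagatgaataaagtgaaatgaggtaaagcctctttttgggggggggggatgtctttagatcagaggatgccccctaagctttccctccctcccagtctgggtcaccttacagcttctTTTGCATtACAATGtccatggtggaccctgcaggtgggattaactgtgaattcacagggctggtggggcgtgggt
P007, Apobec1, chr6:122602445-122602694, minus strand: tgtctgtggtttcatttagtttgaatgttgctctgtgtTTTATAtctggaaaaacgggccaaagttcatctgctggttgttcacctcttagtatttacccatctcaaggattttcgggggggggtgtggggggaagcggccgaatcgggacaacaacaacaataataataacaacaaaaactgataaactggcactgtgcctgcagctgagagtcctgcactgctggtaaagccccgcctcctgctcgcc
P017, Clec4a1, chr6:122921598-122921847, plus strand: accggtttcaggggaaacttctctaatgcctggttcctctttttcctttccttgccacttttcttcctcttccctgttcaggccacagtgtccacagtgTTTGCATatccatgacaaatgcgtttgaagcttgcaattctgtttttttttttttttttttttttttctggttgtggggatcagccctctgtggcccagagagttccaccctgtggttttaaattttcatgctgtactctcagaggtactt
P020, Clec4b1, chr6:123049712-123049961, plus strand: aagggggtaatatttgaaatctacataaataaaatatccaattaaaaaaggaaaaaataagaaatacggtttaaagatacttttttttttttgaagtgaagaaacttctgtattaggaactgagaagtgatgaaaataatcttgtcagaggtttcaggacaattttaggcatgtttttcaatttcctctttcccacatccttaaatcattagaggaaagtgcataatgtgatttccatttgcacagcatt

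In the Nanog window the POU match began 75 bases before the start and the SOX match 67 bases before it, with 1 base between the matches. Among all 32851 RefSeq promoter windows of this length, 4.125% held the POU core, 10.69% the SOX core, 32.74% the GC box and 12.37% the TATA box. The Clec4a1 window held a POU match 151 bases before the start and no SOX match. The Apobec1 window held a TATA match 212 bases before the start, and the Clec4b1 window held none of the 4 motifs. Of the 5 windows not shown, P018 at Clec4a3 held no match, P003 at 1700063H04Rik and P025 at Clec4e a TATA match (173 and 29 bases before the start), P024 at Clec4d a SOX match (164) and P014 at C3ar1 a GC box (76) and a TATA match (235). None of these 5 promoters was called higher. The GC content of the 9 windows ran from 29.2% (Clec4b1) to 53.2% (Clec4a3), with 52% for Nanog, against a median of 52.4% over all windows. A match is a stretch of letters and not a measured binding site.

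The activity scale has no stated zero, so levels were read against the construct without a fragment and against the median cCRE. The construct labelled as empty had an activity of 0.118, 0.0675 and 0.238 in replicates 1, 2 and 3. The median cCRE had 0.134, 0.0632 and 0.256, and the median promoter 0.113, 0.0477 and 0.243. The typical fragment of either class was thus close to the reporter without any fragment, and 178, 155 and 203 of the 236 constructs lay within 2-fold of it in the 3 replicates. The highest activity was 4.69, 4.51 and 3.91 and the lowest 0.0258, 0.0140 and 0.160. The span from lowest to highest was 182-fold, 323-fold and 24.4-fold, so replicate 3 was compressed at its low end, where its values lay above those of the other replicates. High values were close in all 3 replicates. Between replicates the log2 activities of the 236 constructs correlated with a Pearson's r of 0.93 to 0.94. These constructs share libraries and fragments. No Nanog construct was at 0 in any replicate.

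Of the 236 constructs, 48 (20.3%) were higher than the median cCRE and 3 (1.27%) lower, by limma on log2 activity with Benjamini-Hochberg adjustment at 0.05. Over all 443 Klf2 and Nanog constructs in the same fit, 22.6% were called higher and 0.903% lower, so the Nanog share was near that of all constructs tested. The called constructs stood 0.81 to 5.07 above the median cCRE on the log2 scale, with a median of 2.64, against a median of −0.08 over all 236 constructs. By fragment, 30 of 122 were higher on at least 1 strand, namely 27 of 104 cCREs (26.0%) and 3 of 18 promoters (16.7%). Against the empty construct in place of the median cCRE, 57 constructs were higher and 2 lower (24.2% and 0.847% of the 236 in that fit), and these 57 included all 48. With quantile normalisation over replicates, 73 were higher and 65 lower, where 34.5% and 24.2% of all 443 constructs were called, 58.7% in either direction. The count of lower constructs also depended on single replicates: it was 0 without replicate 1, 0 without replicate 2 and 19 without replicate 3.

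**Figure D1:**
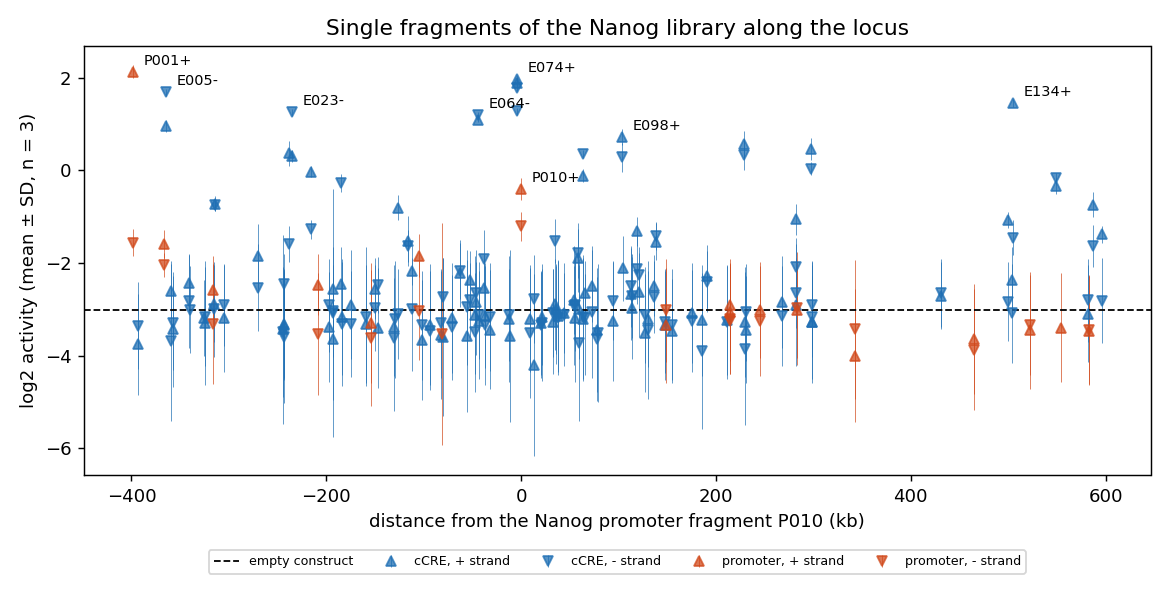
Log2 activity of each single construct (mean ± SD of 3 replicates, y axis) against distance in kb from the centre of the Nanog promoter fragment P010 (x axis), with cCREs in blue, promoters in orange, triangles pointing up for the plus strand and down for the minus strand, and a dashed line at the empty construct. Most constructs lie near the line with long error bars, while the most active ones, at both ends of the locus and next to Nanog, have short ones.

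The strongest cCREs came from 6 fragments, of which 2 lie directly upstream of Nanog. E074 (chr6:122702829-122703279, at −4.28 kb, outside annotated gene spans) had an activity of 4.01, 4.02 and 3.70 on the plus strand. On the minus strand E074 had 2.51, 2.45 and 2.29. Its neighbour E073 (chr6:122702445-122702895, at −4.67 kb), which shares 66 bp with it, had 3.67, 3.84 and 3.50 on the plus strand and 3.37, 3.60 and 3.32 on the minus strand. All 4 constructs lay far above the empty construct in every replicate, with no overlap. On the log2 scale E074 on the plus strand stood 4.91 above the median cCRE (SE 0.445, limma adjusted p = 0.00812, n = 3), which is 30.1-fold. E073 stood 4.83 and 4.73 above it on its plus and minus strands.

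The other 4 fragments lie farther from Nanog. E005 (chr6:122342077-122342527, at −365 kb) is 1.85 kb from Phc1, which encodes a Polycomb subunit. Its activity was 3.02, 3.37 and 3.24 on the minus strand and 1.75, 2.06 and 2.01 on the plus strand. E134 (chr6:123211676-123212126, at 505 kb, nearest to the lectin gene Clec4b2) had 2.62, 2.67 and 2.93 on the plus strand, while its minus strand had only 0.382, 0.274 and 0.460. E023 (chr6:122471468-122471918, at −236 kb) lies within the span of Rimklb, an enzyme that joins glutamate to other molecules. It had 2.29, 2.52 and 2.35 on the minus strand and 1.12, 1.24 and 1.35 on the plus strand. E064 (chr6:122662793-122663243, at −44.3 kb) lies between genes, 21.1 kb from the nearest annotated one, a small nucleolar RNA. Its strands were nearly equal, with 2.18, 2.29 and 2.39 on the minus and 2.08, 2.21 and 2.11 on the plus strand. These 10 highest cCRE constructs stood 3.90 to 4.91 above the median cCRE. Each passed the test (limma adjusted p between 0.00812 and 0.0085) and did so when any 1 replicate was left out. They were chosen as the highest in these same replicates, so their calls were to be foreseen and are no separate evidence. In all, 18 cCRE constructs and 1 promoter construct had an activity above 1 in every replicate.

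No cCRE construct was called lower by limma in this fit, and 75 of the 202 had an unadjusted p under 0.05 in either direction. With quantile normalisation over replicates, limma called 50 of the 202 lower. The lowest mean belonged to E076 on the plus strand (chr6:122719935-122720385, at 12.8 kb), with 0.0258, 0.0238 and 0.263. Replicates 1 and 2 lay well under the empty construct there and replicate 3 did not, and the estimate of −1.25 missed the threshold (limma adjusted p = 0.148). The next lowest were E112 on the minus strand at −0.95, E117 on the minus strand at −0.90, E001 on the plus strand at −0.81 and E089 on the minus strand at −0.78 from the median cCRE, with limma adjusted p from 0.107 to 0.154. Without replicate 3 all 5 passed, at −1.89, −1.38, −1.15, −0.95 and −1.21 (limma adjusted p from 0.000641 to 0.0457), and with quantile normalisation E117 alone among them passed (−0.98, limma adjusted p = 0.00986).

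Among the promoters, the M6pr promoter was the most active single construct of the library and the Nanog promoter ranked next. P001 (chr6:122308357-122308807), within the span of M6pr, which encodes a receptor that sorts enzymes to lysosomes, had 4.69, 4.51 and 3.91 on the plus strand. That is 5.07 above the median cCRE on the log2 scale (SE 0.462, limma adjusted p = 0.00812), or 33.6-fold. On the minus strand the same fragment had 0.333, 0.278 and 0.415, which was 1.38 above the median cCRE (limma adjusted p = 0.0472). P010 (chr6:122707113-122707563), the Nanog promoter shown above with its POU and SOX matches, had 0.789, 0.627 and 0.864 on the plus strand and 0.451, 0.341 and 0.522 on the minus strand. Both strands were above the empty construct in each replicate, by 2.54 (SE 0.337, limma adjusted p = 0.0120) and 1.74 (limma adjusted p = 0.0264) over the median cCRE. The Nanog promoter alone was therefore well below E073 and E074, the cCREs next to it, in all 3 replicates. P002 (chr6:122340486-122340936), 0.259 kb from Phc1, was the third promoter with a call, at 0.320, 0.277 and 0.418 on the plus strand, 1.36 above the median cCRE (limma adjusted p = 0.0476). Its minus strand had 0.235, 0.207 and 0.292 and missed the threshold (limma adjusted p = 0.127). The calls of P001 on the minus strand and of P002 were lost without replicate 1 (limma adjusted p = 0.0790 and 0.0777) and without replicate 2 (0.0676 and 0.0629), and with values centred on all single constructs (0.0586 for each).

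The promoters at Apobec1 and Dppa3 were not called in either direction. P007 at Apobec1 had 0.253, 0.213 and 0.397 on the plus strand, 1.10 above the median cCRE (limma adjusted p = 0.0540). It passed without replicate 3 (1.33, limma adjusted p = 0.00523) and against the empty construct (1.17, limma adjusted p = 0.0111). Its minus strand had 0.124, 0.0581 and 0.255. P009 at Dppa3, read on the minus strand only, had the widest replicates of any promoter, with 0.114, 0.0144 and 0.384, and its estimate of −0.59 did not pass (limma adjusted p = 0.457). Fragments P003 at 1700063H04Rik and P004, 11.6 kb from Rimklb, had activities between 0.0340 and 0.307 over strands and replicates. P014 at C3ar1, the receptor for a complement fragment, ranged from 0.0429 to 0.254.

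The promoter fragments nearest to C-type lectin genes all had low activity. They were assigned by nearest gene, and only P017, P018, P020, P024 and P025 hold a matched RefSeq window as described above. Over the 9 fragments (P016 and P017 at Clec4a1, P018 at Clec4a3, P019 at Clec4a4, P020 at Clec4b1, P022 at Clec4b2, P023 at Clec4n, P024 at Clec4d and P025 at Clec4e), the 17 constructs ranged from 0.0690 to 0.158 in replicate 1, from 0.0221 to 0.0681 in replicate 2 and from 0.160 to 0.273 in replicate 3. None was called higher by limma, against 20.3% of all 236 constructs, and the 3 constructs called lower in the fit without quantile normalisation were among them. With quantile normalisation the lower calls were not limited to them: limma then called 15 promoter and 50 cCRE constructs lower. P020 on the plus strand, at Clec4b1, had 0.0690, 0.0221 and 0.160, −1.05 from the median cCRE (SE 0.218, limma adjusted p = 0.0379). P022 had 0.0708, 0.0271 and 0.166 on the minus strand (−0.92, limma adjusted p = 0.0337) and 0.0863, 0.0340 and 0.174 on the plus strand (−0.70, limma adjusted p = 0.0422). Without replicate 1 these 3 estimates were −1.10, −0.92 and −0.72 and none passed (limma adjusted p from 0.144 to 0.368), and without replicate 2 they were −0.82, −0.77 and −0.60, again without a call (limma adjusted p from 0.0594 to 0.0887). Against the empty construct, P022 on the plus strand did not pass (−0.63, limma adjusted p = 0.0957). Of the cCREs nearest to lectin genes, 7 of 17 were higher on at least 1 strand, and of all cCREs 27 of 104 (26.0%).

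**Figure D2:**
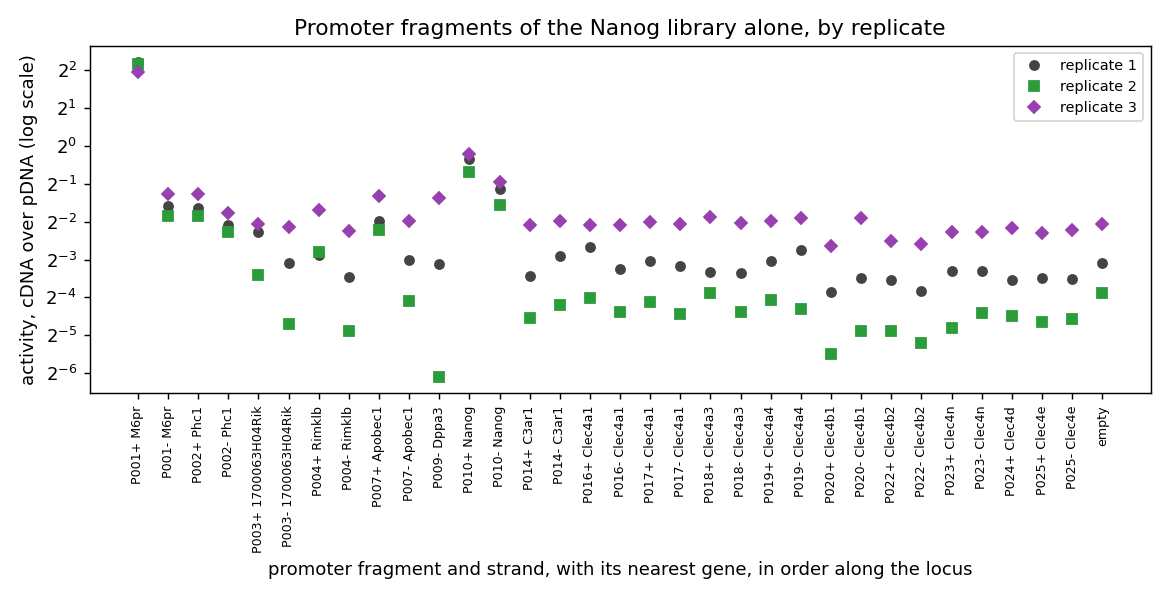
Activity (ratio of cDNA to pDNA barcodes, log scale) of the constructs of 17 promoter fragments in replicates 1 (black circles), 2 (green squares) and 3 (purple diamonds), in order along the locus, with the nearest gene and the empty construct at the right. P001 on the plus strand and both strands of P010 stand out, the lectin promoters lie near the empty construct or under it, and replicate 3 is above the others at low activity.

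As a class, promoters alone did not exceed cCREs alone in this library. The median log2 activity per fragment was −3.15, −4.24 and −2.03 for the 18 promoters and −2.92, −3.96 and −1.96 for the 104 cCREs in replicates 1, 2 and 3. The difference was −0.23, −0.28 and −0.07, with a mean of −0.19 ± 0.11 (SD, n = 3), and promoters were lower in all 3 replicates. With means over fragments in place of medians the mean difference was −0.37. Of the 18 promoters, 7 lay above the cCRE median, 3 above the upper quartile of the cCREs and 7 below the lower quartile. The class held 9 promoters nearest to lectin genes, with a median log2 level of −3.40, against −2.68 for the 17 cCREs nearest to lectin genes. The 3 promoters nearest to Nanog and its listed neighbours had −2.44, against −3.16 for 35 cCREs. The 6 promoters nearest to other genes had −2.97, against −2.94 for 52 cCREs. Fragments are not replicates of a class, so no test was made over them. In the Klf2 library, measured in the same 3 samples, the difference was 1.47, 1.23 and 0.34 (mean 1.01 ± 0.59, SD, n = 3), with 15 of 23 promoters above the upper quartile of 85 cCREs. In the Tfcp2l1 library, measured in other samples and read here from a table of cCRE-promoter pairs that may not list every fragment, it was 0.50, 0.39 and 0.40 (mean 0.43 ± 0.06, SD, n = 3), with 10 of 24 promoters above the upper quartile of 197 cCREs. The sign was thus opposite to that of the Nanog library in every replicate of both. The difference between libraries was not tested.

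**Figure D3:**
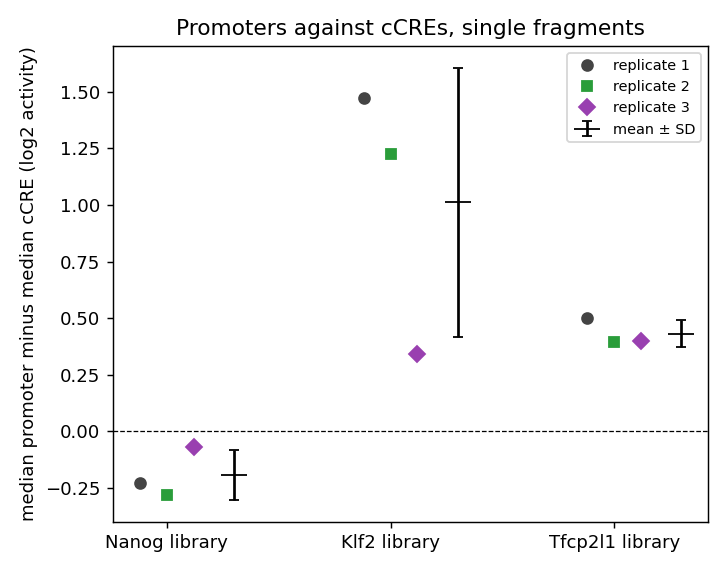
Median log2 activity of promoters minus that of cCREs (y axis) in each replicate (symbols) for the Nanog, Klf2 and Tfcp2l1 libraries, with mean ± SD of 3 replicates beside them and a dashed line at 0. The 3 Nanog values lie between −0.28 and −0.07, under the line, and the values of the other libraries lie above it.

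Both strands of a fragment had related levels. Over the 114 fragments with both strands, the level on plus and minus correlated with a Pearson's r of 0.84 and a Spearman's rho of 0.69, and the median absolute difference was 0.32 on the log2 scale. The rho was 0.69 over 98 cCREs and 0.67 over 16 promoters. Of the 98 cCREs, 16 were called higher than the median cCRE on both strands, 10 on 1 strand (7 plus, 3 minus) and 72 on neither. The strands are the same fragment in opposite orientations (1 the reverse complement of the other) and were measured in the same samples. The files mark strands as plus and minus, and whether this refers to the chromosome or to the gene is not given in the sources used here.

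A difference between the strands passed in 3 of the 114 fragments, all with plus higher (limma, Benjamini-Hochberg at 0.05), where 4.23% of all 213 Klf2 and Nanog fragments in the fit passed, and 10 had an unadjusted p under 0.05. P001 at M6pr differed most, by 3.82, 4.02 and 3.24 on the log2 scale in replicates 1, 2 and 3, a mean of 3.69 (SE 0.338, limma adjusted p = 0.00747) or 12.9-fold. E134 differed by 2.77, 3.29 and 2.67, a mean of 2.91 (SE 0.353, limma adjusted p = 0.00925). E022 (chr6:122469256-122469706, within the span of Rimklb) had 1.41, 1.04 and 1.46 on the plus and 0.332, 0.252 and 0.435 on the minus strand, a mean difference of 1.96 (SE 0.377, limma adjusted p = 0.0482). The plus values of these 3 fragments did not overlap their minus values, which was to be foreseen because they were selected by this difference. Leaving out a replicate left 2 samples a strand and ended these calls: none of the 114 passed without replicate 1 or 3, and only P001 without replicate 2. With each replicate centred first, the limma adjusted p was 0.0677 for P001 and E134 and 0.122 for E022, and with the Nanog library alone in the fit E022 missed the threshold (0.0881). All fits in this paragraph left the strands unpaired, although both strands come from the same cDNA samples. No replicate was left out of the paired fit given next, so these losses do not apply to it.

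Since both strands were read in the same cDNA sample, the fit with the replicate as a block removes what the strands share. With this replicate block, 13 fragments passed, 9 with plus higher and 4 with minus higher, where 13.6% and 3.76% of all 213 fragments passed in these directions. The 13 include the 3 above (limma adjusted p = 0.00274, 0.00299 and 0.00361 for P001, E134 and E022). The Nanog promoter P010 was among them: its plus strand was higher by 0.81, 0.88 and 0.73, a mean of 0.80 or 1.75-fold (limma adjusted p = 0.0173 with the block and 0.414 without). E074 was also higher on plus, by 0.69 (adjusted p = 0.0187 with the limma block), whereas E073 differed by 0.10 and did not pass (0.472). The 4 with minus higher were E031 in Mfap5 (−2.17), E082 in Slc2a3 (−1.36), E023 in Rimklb (−0.95) and E005 near Phc1 (−0.73). E031, E082 and the plus-higher E042 in Apobec1 (2.29) are named here because of these values. With quantile normalisation over replicates in place of the block, 35 fragments passed in the limma fit, 22 with plus and 13 with minus higher, where 37.6% of all 213 passed. Among promoters, 11 of 16 were higher on plus in all 3 replicates and 2 on minus. Among cCREs these counts were 34 and 28 of 98.

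**Figure D4:**
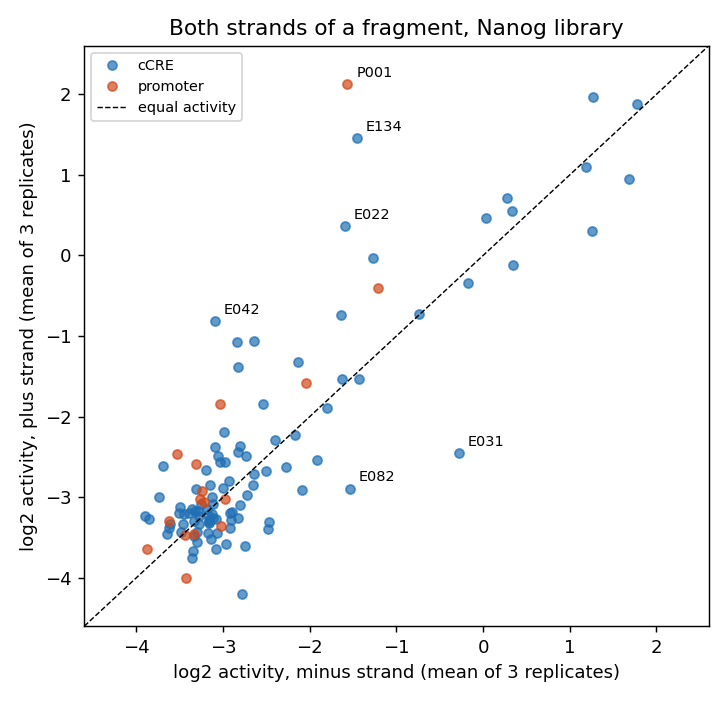
Log2 activity on the plus strand (y axis) against the minus strand (x axis) for the 114 fragments with both, each the mean of 3 replicates, with cCREs in blue, promoters in orange and a dashed line of equal activity. Most fragments lie near the line at low activity, and P001, E134, E042 and E022 lie farthest above it.

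Here a fragment is termed active if it was called higher than the median cCRE on at least 1 strand. Active cCREs lay on both sides of Nanog, from the far upstream end to the far downstream end of the locus. A stretch from 300 to 500 kb held 1 cCRE and no active one. Within 50 kb of the Nanog promoter fragment, 4 of 20 cCREs were higher on at least 1 strand, and beyond it 23 of 84. The median log2 activity within 50 kb minus that beyond was −0.23, −0.40 and −0.07 in replicates 1, 2 and 3, a mean of −0.23 ± 0.17 (SD, n = 3). With windows of 25 kb and 100 kb the mean was −0.28 in each case. Over the 104 cCREs, the level had a Spearman's rho of 0.17 with distance from P010 and 0.13 with position, and neighbours in order along the chromosome had a rho of 0.08 over 103 pairs. Over all cCREs 26.0% were active. In bins of 100 kb from −400 kb on, active cCREs made up 2 of 11, 4 of 7, 3 of 15 and 3 of 18 up to P010. After it they made up 3 of 20, 4 of 15, 3 of 10, 0 of 0, 0 of 1 and 5 of 7.

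Near the genes of the Nanog neighbourhood, active fragments lay within 10 kb of Nanog and of Slc2a3. Within 10 kb of Nanog, Dppa3, Gdf3, Slc2a3 or Apobec1 lay 18 fragments, of which 5 were higher on at least 1 strand, with a median log2 level of −3.20. Among the other 104 fragments 25 were higher, with a median of −3.03. At Nanog these were E073, E074 and P010, and the fourth fragment there, E075, lay at −3.36. For Slc2a3, which moves glucose into cells, E098 and E099 were higher, at 8.4 and 8.9 kb from its span. The gene nearest to E099 was Foxj2. Closer to an end of the Slc2a3 span, E076, E079, E080 and E096 (7.42, 0.149, 0.331 and 0.894 kb) lay between −3.49 and −3.04. E098 (chr6:122810788-122811238, at 104 kb) had 1.88, 1.61 and 1.48 on the plus and 1.54, 1.03 and 1.12 on the minus strand. No fragment within 10 kb of Dppa3 (E051, E052, E054 and P009), Gdf3 (E045, E046, E049 and P007) or Apobec1 (E045, E046 and P007) was called higher on either strand. Their levels ran from −3.54 to −2.44. For Dppa3, Gdf3 and Slc2a3 the distance was taken from the nearer end of the gene span.

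By nearest gene, the cCREs of Rimklb had 4 of 7 higher on at least 1 strand (E017, E022, E023 and E027), those of Slc2a3 4 of 19 (E082, E088, E090 and E098), those of Foxj2, a forkhead factor, 3 of 9 and those of Nanog 2 of 7. These genes are a selection, and 1700063H04Rik, also with 7 cCREs, had 1 higher. Over all cCREs 27 of 104 (26.0%) were higher on at least 1 strand. Grouped, cCREs nearest to Nanog and its listed neighbours had 8 of 35 (22.9%) and those nearest to other genes 12 of 52 (23.1%), both near that share. Those nearest to lectin genes had 7 of 17 (41.2%). The group of other genes was not tested against the rest, nor were the others. The group nearest to other genes includes 10 cCREs between Dppa3 and Nanog that lie nearest to a small nucleolar RNA, with only E064 higher. The nearest gene is an annotation and not a measured target.

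Some fragments overlap and so share bases. There were 8 overlapping pairs, sharing 4 to 294 bp, and their levels (mean log2 over strands and replicates) differed by 0.01 to 2.62. E073 and E074 share 66 bp and had levels of 1.83 and 1.62. E098 and E099 share 4 bp and had 0.50 and −2.12, the widest gap, with E099 read on the plus strand only. E120 and E121 share 284 bp, and E120 was called higher on plus, with 0.407, 0.434 and 0.629, while E121 there had 0.0583, 0.114 and 0.354. On the minus strand the order was reversed, with 0.138, 0.103 and 0.286 for E120 and 0.180, 0.186 and 0.390 for E121. As second fragment of a pair, E120 and E121 on the plus strand had medians of −1.10 (117 partners) and −1.56 (141 partners), closer than alone. The remaining pairs (E019 and E020, E071 and E072, E100 and E101, E123 and E124, and the Clec4a1 promoters P016 and P017) were all without a call and differed by 0.01 to 0.42.

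The same constructs were also measured next to a partner fragment, which gives a second reading of each level in the same samples. Over constructs with at least 10 partners, the level alone correlated with the median level in pairs with a Pearson's r of 0.92 and a Spearman's rho of 0.82 when listed first (156 constructs), and with 0.97 and 0.88 when listed second (192 constructs). For constructs called higher alone, the level in pairs minus that alone had a median of −0.60 in the first position (26 of 34 below their level alone) and −0.07 in the second (23 of 37). These constructs were chosen for a high level alone, so some fall in a second reading follows from that choice. E074 on the plus strand went from 1.97 alone to a median of 1.12 over 211 partners as first fragment and 1.75 over 167 as second. The Nanog promoter on the plus strand went from −0.41 alone to −0.86 over 144 and −0.32 over 95. E031 on the minus strand differed between positions, with −0.28 alone, −2.78 as first fragment over 100 partners and −0.93 as second over 72. Of the 13523 constructs of 2 fragments listed, 12996 were above 0 in all replicates, and a log2 level needs values above 0. The partners also differed between positions: E017 on the plus strand had 11 as first fragment and 135 as second. Position and set of partners therefore cannot be told apart here. Pairs share partners and plasmid pool with the single constructs, so these correlations are descriptions.

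**Figure D5:**
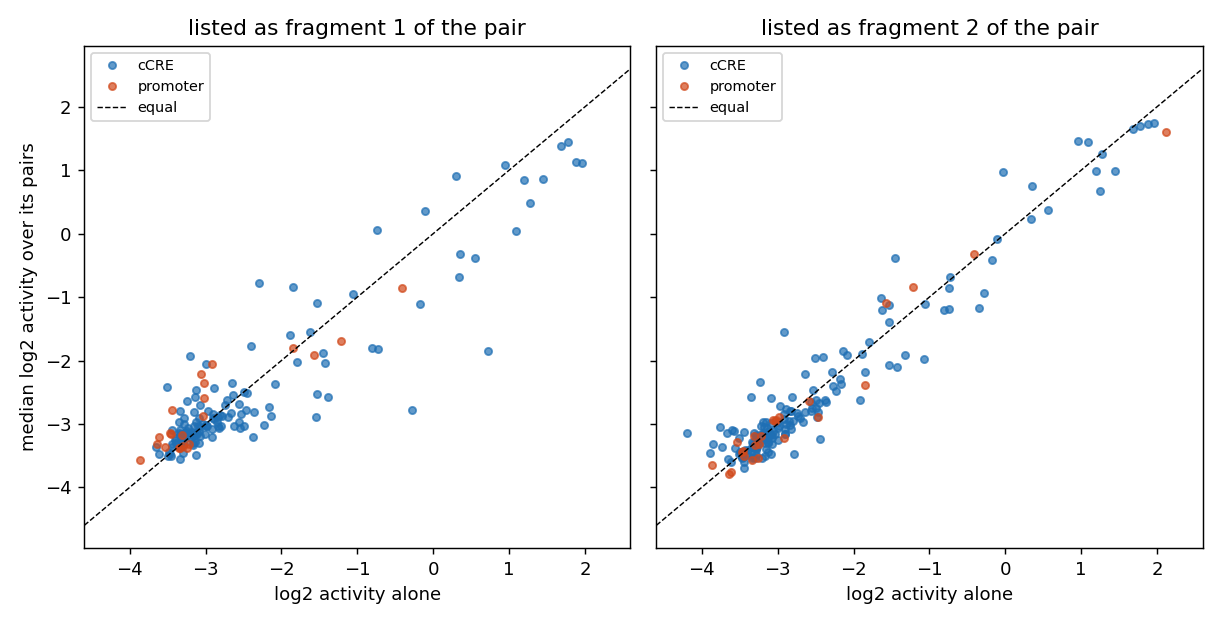
Median log2 activity of a construct over its pairs (y axis) against its log2 activity alone (x axis), as first fragment (left) and second fragment (right) of the pair, for constructs with at least 10 partners, with cCREs in blue, promoters in orange and a dashed line of equal activity. Points lie closer to the line on the right (r = 0.97) than on the left (r = 0.92), and active constructs on the left lie mostly under it.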

How the data were processed

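Activities were measured in 3 cDNA samples, with 2 plasmid DNA samples as input. Per the file headers, the authors' deposited activity is a linear ratio of cDNA to pDNA barcodes for each construct and biological replicate. Per the submitters' processing notes, Bowtie2 and the mm10 build were used. Barcode counting, filters and the scale of the ratio are not given in the sources used here. Another 12 value columns were not used.

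Single values repeat in each construct that holds the fragment. These repeats differed by at most 0.0, and 1 was kept per fragment, strand and replicate. Nanog and Klf2 values came from the table of all combinations and Tfcp2l1 values from that of cCRE-promoter pairs. Levels were fitted with limma 3.58.1 in R 4.3.3 (lmFit, eBayes) on log2 activity minus the replicate's median over the library's cCREs, for 443 constructs. Strands were compared likewise for 213 fragments, with Benjamini-Hochberg adjustment at 0.05. Strands of 1 replicate come from the same cDNA sample, so replicate numbers pair them. The fit without the block was the main one, and the blocked one stands beside it. Values per fragment are means over strands. Class and position were compared per replicate, with SD over 3. Genes and promoter windows came from RefSeq (GRCm38.p6) without exons, so fragments are placed only in or outside gene spans. Whether listed starts count from 0 or 1 is not given. Tables and plots used Python 3.11.15, numpy 2.4.6, pandas 2.3.3 and matplotlib 3.10.9.

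The simulated data placed every unchanged construct at its library's median cCRE in each replicate, with independent noise of the construct's own SD. Real levels vary between constructs, so the counts that follow need not hold for these data. On simulated data, the level fit recovered 13, 16 and 19 of 20 constructs changed by log2 1, 2 and 3, with 6 false calls among 54. The strand fit recovered 0, 1 and 14 of 20, with 0 false calls among 15. Fragments named are the promoters, the 10 highest and 5 lowest cCRE constructs, up to 8 strand differences, fragments within 10 kb of the listed genes, and overlapping pairs. The values of 1 promoter fragment and its surroundings are not reported here. The members, lists and tests were chosen with earlier results of these data known. Alternatives were a pseudocount of 0.01, other centrings, quantile normalisation, leaving out the least active constructs (212 kept), the Nanog library alone, the replicate block, other windows and leaving out each replicate. The empty construct as zero, and the block with quantile normalisation, were added after the data were seen.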

Additional observations from a re-analysis of the deposited data

Results flagged for a closer look

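The difference between promoters and cCREs alone pointed one way in every replicate of the Nanog library and the other way in every replicate of the other libraries. On the log2 scale it averaged −0.19 in the Nanog library, 1.01 in the Klf2 library and 0.43 in the Tfcp2l1 library. With means over fragments the Nanog value was −0.37. Of the 18 Nanog-library promoters, 9 were nearest to lectin genes, and these 9 had low activity. The difference between libraries was not tested. The Nanog and Klf2 values come from the same 3 samples, whereas the Tfcp2l1 values come from other samples and a table that may not list every fragment.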

How the results depend on the processing

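The named highest and lowest cCRE constructs, the called promoter constructs and P007 on the plus strand kept their direction in every alternative run that held them. So did the 3 called strand differences, the promoter minus cCRE difference and the difference by distance from the Nanog promoter fragment. Some strand estimates without a call changed sign. With quantile normalisation E105 went from 0.23 to −0.05 and E086 from 0.12 to −0.07, without a call in either fit. With quantile normalisation over replicates, 73 constructs were higher and 65 lower than the median cCRE, against 48 and 3. All 48 were among the 73. Leaving out the least active constructs removed the 3 called lower themselves, so the count of 0 there (71 of 212 with an unadjusted limma p under 0.05) is set by that filter. The lower count was 0 to 19 with 1 replicate left out. The strand count was 3 as reported, 13 with the replicate block, 35 with quantile normalisation, 33 with the replicate block and quantile normalisation, and 0 with each replicate centred (18 of 114 with an unadjusted limma p under 0.05). It was 0 to 1 with 1 replicate left out (2, 5 and 12 with an unadjusted limma p under 0.05 without replicates 1, 2 and 3), which leaves fewer samples. The strand runs with centring or with a replicate left out were made without the replicate block. The promoter minus cCRE difference was −0.37 with means over fragments in place of medians. The causes were not tested. Low activities limit the precision: replicates differ most there, and the depth is unknown.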
